A study of Homo sapiens with 8 samples.

Results

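Mitotic genes are a set of 40 genes that act in G2 and in mitosis, from the cyclin-CDK switch that starts cell division to the proteins that cut the daughter cells apart. They were followed in DU145, an established epithelial line grown from a prostate tumour that had spread to the brain. The members were fixed by gene symbol, with no measured value in the rule, but they were chosen with earlier results of these data known. All 40 were found once each among the 32066 Ensembl genes of a deposited table of read counts. All 40 also passed the filter on low counts, which kept 15665 genes in all. Poly(A) RNA was sequenced from 4 libraries of control DU145 cells and 4 libraries of DU145 cells that overexpress SOX11, a transcription factor best known from developing neurons. Both groups were grown in DMEM with serum and antibiotics. The labels do not say what the control cells received, how SOX11 was delivered, or whether a group was 1 clone. They also do not say whether the libraries came from separate cultures, so p-values measure only the spread between these libraries. The comparison asks which transcripts differ when SOX11 is expressed in this line.

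A cell enters mitosis when CDK1, bound to cyclin A or cyclin B, becomes active. The chromosomes then attach to the spindle through kinetochores, and the spindle assembly checkpoint holds back the anaphase-promoting complex (APC/C) until every attachment is made. Most of these genes are transcribed in G2 and M phase by the MuvB complex with MYBL2 (B-MYB) and FOXM1, and are repressed in resting cells when MuvB joins the DREAM complex. MuvB binds a short promoter element called the cell cycle genes homology region (CHR), often next to CCAAT boxes bound by NF-Y, whereas genes of DNA replication more often carry E2F sites. DU145 cells are known to lack functional retinoblastoma protein and to carry mutant p53.

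The promoters are shown because this element is a feature that many members share and that the choice of members did not use. RefSeq promoter windows on GRCh38.p14, from 250 bases before to 50 bases after the annotated start, were at hand for 33 of the 40 members. Other starts of a gene were not searched, so an element there would be missed. A CHR was searched for as TTTGAA or TTCGAA and a CCAAT box as CCAAT, each on both strands. The stretches below are the 170 bases before the start, 5′ to 3′ on the strand of the gene, with CHR and CCAAT matches in capitals. The first 6 are the members with the smallest p-values among those with a CHR in this stretch. The last 2 are the members with the highest log2 fold changes among those without one in the window. They lie at chr7:36389692-36389861 (ANLN, plus strand), chr15:69414179-69414348 (KIF23, plus), chr15:59104976-59105145 (CCNB2, plus), chr10:60778161-60778330 (CDK1, plus), chr1:43358811-43358980 (CDC20, plus), chr10:128126424-128126593 (MKI67, minus), chr5:138338356-138338525 (CDC25C, minus) and chr20:3786781-3786950 (CDC25B, plus).
ANLN: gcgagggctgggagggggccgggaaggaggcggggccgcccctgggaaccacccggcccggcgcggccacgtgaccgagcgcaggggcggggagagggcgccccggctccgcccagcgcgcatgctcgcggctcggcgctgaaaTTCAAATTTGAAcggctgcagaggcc
KIF23: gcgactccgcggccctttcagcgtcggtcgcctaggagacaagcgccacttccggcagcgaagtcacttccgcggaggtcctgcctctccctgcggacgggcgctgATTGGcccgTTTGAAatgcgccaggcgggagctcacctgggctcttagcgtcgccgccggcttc
CCNB2: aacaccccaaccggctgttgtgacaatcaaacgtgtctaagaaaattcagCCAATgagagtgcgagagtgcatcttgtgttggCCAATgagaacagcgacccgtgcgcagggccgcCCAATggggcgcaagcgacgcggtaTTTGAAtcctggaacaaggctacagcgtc
CDK1: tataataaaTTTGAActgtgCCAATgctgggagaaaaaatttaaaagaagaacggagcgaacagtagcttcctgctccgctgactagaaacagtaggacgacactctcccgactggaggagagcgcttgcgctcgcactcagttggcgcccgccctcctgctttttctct
CDC20: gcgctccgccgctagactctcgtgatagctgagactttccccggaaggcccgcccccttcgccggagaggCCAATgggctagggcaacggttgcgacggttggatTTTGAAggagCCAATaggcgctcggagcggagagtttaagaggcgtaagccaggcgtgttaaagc
MKI67: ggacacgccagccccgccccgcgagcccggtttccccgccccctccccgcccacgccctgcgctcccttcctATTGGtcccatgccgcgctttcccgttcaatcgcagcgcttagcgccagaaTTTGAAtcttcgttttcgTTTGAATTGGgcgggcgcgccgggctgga
CDC25C: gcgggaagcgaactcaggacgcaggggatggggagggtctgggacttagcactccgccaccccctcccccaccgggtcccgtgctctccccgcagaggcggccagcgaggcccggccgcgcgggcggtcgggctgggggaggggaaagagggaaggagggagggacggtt
CDC25B: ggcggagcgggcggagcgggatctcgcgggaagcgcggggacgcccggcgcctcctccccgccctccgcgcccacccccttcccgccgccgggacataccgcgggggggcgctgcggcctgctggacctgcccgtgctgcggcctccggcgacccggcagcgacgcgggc

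In ANLN the CHR letters stand in opposite orientation side by side, and in MKI67 a CHR overlaps a CCAAT box read on the other strand. A CHR was present in 24 of 33 members' windows (72.7%), against 10.9% of the 10995 windows of genes tested here and 16.6% of all 27305 windows in the table. In 21 of the 33 it began between 60 bases before and 50 after the start, against 3.34% of the windows of genes tested. A CCAAT box was present in 25 of 33 (75.8%, against 36.5%), and both elements in 20 of 33 (60.6%, against 4.67%). E2F letters (TTTCCCGC, TTTGGCGC, TTTCGCGC or TTTGCCGC) were found in 3 of the 33 windows and in 16 of 27 windows of DNA replication genes. A CHR was found in 2 of those 27 windows (7.41%). Among the members it was found in 16 of the 20 called lower and in 8 of the 13 not called. Between 60 bases before and 50 after the start it began in 13 of the 20 and in 8 of the 13. Both elements were present in 12 of the 20 and in 8 of the 13, so these shares were nearly equal. A SOX core, searched as ACAATG or ACAAAG, was found in 2 of the 33 members' windows, those of KIF20A and PTTG1, against 15.6% of the windows of genes tested. These matches are letters in a window, with other starts of the genes not searched, and not measured binding sites.

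**Figure D1:**
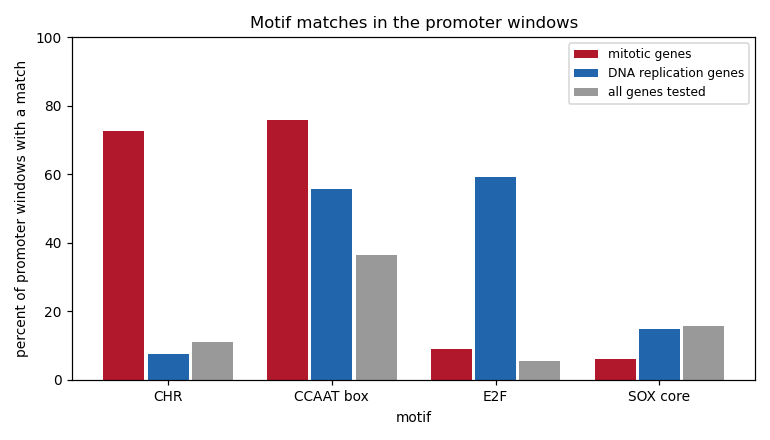
Share of promoter windows (percent, y axis) with at least 1 match to each motif (x axis), for the mitotic genes (33 windows), DNA replication genes (27) and all genes tested (10995). The CHR bar stands at 72.7% for the mitotic genes and 10.9% for all genes tested, and the E2F bar is highest for the replication genes.

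Depth ran from 14641250 to 18706095 counts per control library and from 15309037 to 16740516 per SOX11 library. SOX11 had 0 counts in each control library and 303 to 317 in the SOX11 libraries, as the labels give it. The epithelial markers EPCAM, KRT8, KRT18, KRT19 and CDH1 were present in all libraries (sums of 1497 to 1761 CPM with control and 1200.0 to 1206 CPM with SOX11 cells), and KRT5 had no row. Fibroblast markers had sums of 3.33 to 5.43 CPM with control and 5.84 to 7.71 CPM with SOX11 cells, most of it COL1A1, and DCN and LUM had no row. Blood and endothelial markers stayed under 1 CPM in sum. CPM is edgeR's scaled count, a gene's share of the TMM-adjusted library total. These marker levels moved with the groups, and their part in the results was not tested.

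The library SOX11 replicate 1 stood apart in the luminal prostate markers KLK2 and KLK3. It held KLK2 at 9.93 CPM and KLK3 at 5.86 CPM, while the other 7 libraries were at or under 0.277 CPM for each. Counts of changed members are therefore also given without this library.

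Mitotic genes, a set chosen with earlier results of these data known, were slightly lower in SOX11-expressing cells. Of the 40 members, 26 were called lower and 0 higher (edgeR quasi-likelihood test, Benjamini-Hochberg adjusted p below 0.05, n = 4 per group), against 9.67% of all genes tested called lower and 10.3% called higher. The count of members higher was also 0 at an unadjusted p below 0.05, and 0 with DESeq2 and with limma-voom. The changes were small, from -6.29% (CCNB1) to -18.2% (ANLN) among the 26, with a median of -12.3%. The median log2 fold change (SOX11 minus control) over the 40 was -0.12, against 0.0011 over all genes tested, and 38 of the 40 were below 0, against 49.7% of all genes tested. Among 1891 genes of similar level (92.5 to 251 CPM, the middle range of the members), 20.0% were called lower, with a median log2 fold change of -0.02. In 23 of the 40 every SOX11 library was below every control library, a pattern found in 10.4% of all genes tested, and in 0 the reverse. Without SOX11 replicate 1, 21 members were called lower and 0 higher, with a median of -0.12. The calls that ended were those of CENPA, KIF20A, BIRC5, TOP2A and CCNB1.

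**Figure D2:**
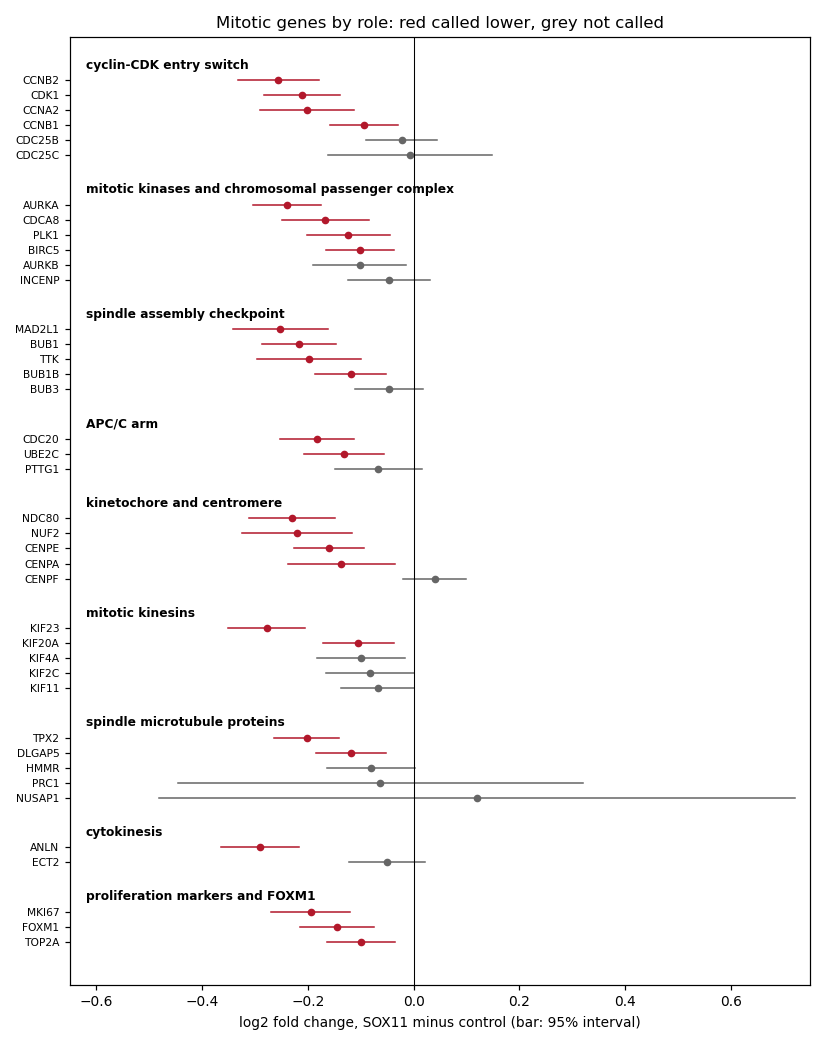
Log2 fold change, SOX11 minus control (x axis), of each mitotic gene (y axis), grouped by role. Points are edgeR estimates from 4 libraries per group with 95% intervals, red where called lower and grey where not called. Most points lie between 0 and -0.29, and the widest intervals belong to PRC1 and NUSAP1.

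The counts by role that follow are parts of the 26 of 40 and not separate results. The share called lower was 9.67% over all genes tested and 20.0% over those at 92.5 to 251 CPM. Of the 6 genes of the entry switch, 4 fell and CDC25B and CDC25C were not called. CDK1, the kinase that drives entry into mitosis, was at 174, 177, 186 and 192 CPM in the control libraries and at 153, 161, 158 and 156 CPM in the SOX11 libraries. All 4 SOX11 libraries lay below all 4 control libraries, with a log2 fold change of -0.21 ± 0.0352 (SE, edgeR adjusted p = 4.27e-05). CCNB2, which encodes cyclin B2, was at 122, 120.3, 117 and 119 CPM in control and at 94.0, 103, 99.1 and 104 CPM in SOX11 libraries. Its groups did not overlap either, and its log2 fold change was -0.26 ± 0.0375 (adjusted p = 6.61e-06). CCNB1, which encodes the more abundant cyclin B1, was at 266, 263, 264 and 254 CPM in control and at 239.5, 246, 241 and 254 CPM in SOX11 libraries. Control replicate 4 and SOX11 replicate 4 were level, so the groups overlapped, and the fall was smaller (-0.09 ± 0.0313, adjusted p = 0.0321). The CCNB1 call ended in 10 of 18 alternatives, among them without control replicate 1, 2 or 3 or SOX11 replicate 1 or 3 (adjusted p = 0.0673 to 0.104), and reached 0.134 with total-count scaling. CCNA2 (cyclin A2) fell by 0.20 on the log2 scale (adjusted p = 0.000964). It shares 254 exonic bases with EXOSC9 on the opposite strand.

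The CDC25 phosphatases remove the phosphates that hold CDK1 inactive. CDC25C was at 18.0, 17.9, 20.9 and 20.8 CPM in control and at 18.1, 18.4, 18.4 and 22.3 CPM in SOX11 libraries, so the ranges coincided (log2 fold change -0.01, 95% interval -0.16 to 0.15). CDC25C shares 293 exonic bases with FAM53C on the opposite strand. CDC25B averaged 155 ± 1.78 CPM (SD, n = 4) in control libraries and 153 ± 3.77 CPM with SOX11, with a 95% interval of -0.09 to 0.04 on the log2 scale. For both, the sign of the fold change turned with total-count scaling.

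Among mitotic kinases and the chromosomal passenger complex, 4 of 6 fell, against 9.67% of all genes tested. AURKA, the kinase of centrosomes and spindle poles, was at 251, 251, 254 and 255 CPM in control and at 209, 215, 208 and 224 CPM in SOX11 libraries. Its control libraries were nearly level and all lay above the SOX11 libraries (log2 fold change -0.24 ± 0.0318, edgeR adjusted p = 1.31e-06). PLK1, a kinase that acts from mitotic entry to cytokinesis, was at 171, 183, 175 and 181 CPM in control and at 162, 149, 172 and 167 CPM in SOX11 libraries. SOX11 replicate 3 reached into the control range and replicate 2 was the lowest of all (-0.12 ± 0.0384, adjusted p = 0.0215). The PLK1 call ended without SOX11 replicate 2 (adjusted p = 0.0978), control replicate 2 (0.0814) or control replicate 4 (0.0619), and with total-count scaling (0.0729). In the passenger complex, which corrects faulty attachments, CDCA8 (borealin, -0.17) and BIRC5 (survivin, -0.10) fell. The BIRC5 call ended without control replicate 3 or 4 or SOX11 replicate 1 or 3 (adjusted p = 0.0518 to 0.0813) and with total-count scaling (0.0845). Its kinase AURKB (-0.10, adjusted p = 0.0979) and its scaffold INCENP (-0.05, adjusted p = 0.447) were not called.

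In the spindle assembly checkpoint, 4 of 5 genes fell, against 9.67% of all genes tested. BUB1, a checkpoint kinase at kinetochores, was at 175, 177, 178 and 174 CPM in control and at 144, 151, 151 and 159 CPM in SOX11 libraries. The groups did not overlap (log2 fold change -0.22 ± 0.0342, edgeR adjusted p = 1.94e-05). MAD2L1, which encodes the MAD2 protein that sequesters CDC20, had a log2 fold change of -0.25 (adjusted p = 8.85e-05), that of the kinase TTK (MPS1) was -0.20 and that of BUB1B (BUBR1) -0.12. BUB3, which brings BUB1 and BUBR1 to kinetochores, averaged 286 ± 2.91 CPM in control libraries and 277 ± 9.38 CPM with SOX11 and was not called (adjusted p = 0.327).

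Downstream of the checkpoint, the APC/C coactivator CDC20 and the APC/C ubiquitin-conjugating enzyme UBE2C fell. CDC20 had the highest level per length of all members, 163 CPM per kilobase of exon in control. It was at 315, 344, 326 and 344 CPM in control and at 286, 280.2, 299 and 306 CPM in SOX11 libraries, without overlap (log2 fold change -0.18 ± 0.0343, edgeR adjusted p = 0.000197). UBE2C had a log2 fold change of -0.13 (adjusted p = 0.0112), and this call ended without control replicate 3 (adjusted p = 0.0507). PTTG1, which encodes securin, the separase inhibitor that APC/C destroys at anaphase, averaged 100.4 ± 3.74 CPM in control libraries and 95.9 ± 4.89 CPM with SOX11 (-0.07, adjusted p = 0.273).

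Of 5 kinetochore and centromere genes, 4 fell, against 9.67% of all genes tested. NDC80 and NUF2 encode partner subunits of the complex that grips microtubules. NDC80 was at 128, 135, 144 and 138 CPM in control and at 109.5, 118, 114 and 123 CPM in SOX11 libraries, without overlap (log2 fold change -0.23 ± 0.0398, edgeR adjusted p = 7.14e-05). NUF2 had a nearly equal log2 fold change of -0.22 (adjusted p = 0.00214), and the kinetochore motor gene CENPE had -0.16 (adjusted p = 0.000475). CENPA, the centromeric histone H3 variant, had -0.14 at an adjusted p of 0.0478, and this call ended in 13 of 18 alternatives, among them each removal of 1 library other than SOX11 replicate 2 (adjusted p = 0.0511 to 0.159). CENPA shares 138 exonic bases with SLC35F6 on the same strand. CENPF, a large kinetochore and nuclear matrix protein of G2, was the exception. It was at 392, 391, 392 and 387 CPM in control and at 390, 396, 403 and 416 CPM in SOX11 libraries (log2 fold change 0.04 ± 0.0295, 95% interval -0.02 to 0.10, adjusted p = 0.392). Its 95% interval did not reach the falls of NDC80, NUF2 or CENPE, and its fold change turned to -0.0016 with an offset for GC content and length.

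Among mitotic kinesins, KIF23 and KIF20A, both needed for the central spindle and cytokinesis, fell. KIF23 was at 265, 277, 287 and 283 CPM in control and at 217, 230.2, 224 and 246 CPM in SOX11 libraries. This was the second largest fall of the 40, with no overlap between groups (log2 fold change -0.28 ± 0.0357, edgeR adjusted p = 8.29e-07). KIF20A had -0.10 (adjusted p = 0.0228), and its call ended without control replicate 3 or 4 or SOX11 replicate 1, 2 or 3 (adjusted p = 0.0510 to 0.0784) and with total-count scaling (0.0908). KIF11 (Eg5, the motor that separates spindle poles), KIF2C (MCAK, a microtubule depolymerase) and KIF4A (a chromosome-bound motor) had log2 fold changes of -0.07, -0.08 and -0.10 and were not called. Of the 2 cytokinesis genes, ANLN, which encodes the contractile ring scaffold anillin, was at 452, 473, 493 and 471 CPM in control and at 356, 388, 390.3 and 410.0 CPM in SOX11 libraries. It had the largest fall of the 40 (-0.29 ± 0.0358, adjusted p = 5.90e-07), and its groups did not overlap. ECT2, the RhoA exchange factor that KIF23 and its partner help to recruit, was not called (-0.05, adjusted p = 0.362).

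Of 5 spindle microtubule proteins, 2 fell, against 9.67% of all genes tested. TPX2, the activator and targeting factor of Aurora A, was at 397, 413, 416 and 404 CPM in control and at 349, 349, 351 and 368 CPM in SOX11 libraries, without overlap (log2 fold change -0.20 ± 0.0302, edgeR adjusted p = 9.02e-06). DLGAP5 (HURP, a spindle protein) had -0.12 (adjusted p = 0.00805), and HMMR, a spindle pole protein, was not called (-0.08, adjusted p = 0.175). PRC1 and NUSAP1, which bundle and stabilise spindle microtubules, were counted at far lower levels than the other members. NUSAP1 had from 7 to 19 counts per library, or 0.958, 0.757, 1.03 and 0.485 CPM in control and 1.17, 0.710, 0.669 and 0.977 CPM in SOX11 libraries. PRC1 had 40, 36, 26 and 44 counts in control and 33, 37, 42 and 32 in SOX11 libraries. The groups overlapped for both genes. Per kilobase of exon their control levels were 0.281 and 0.423 CPM, against 5.82 to 163 CPM for the other 38 members. In GENCODE 29, 3181 of the 5525 exonic bases of PRC1 are shared with ENSG00000284946 on the same strand, a gene with 1936 counts over the 8 libraries. No gene of the table overlaps NUSAP1 there. The part of overlapping annotation in these levels was not tested, and changes as small as those of the other members were not detectable in either gene at this depth. The 95% interval of PRC1 was -0.45 to 0.32 on the log2 scale.

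**Figure D3:**
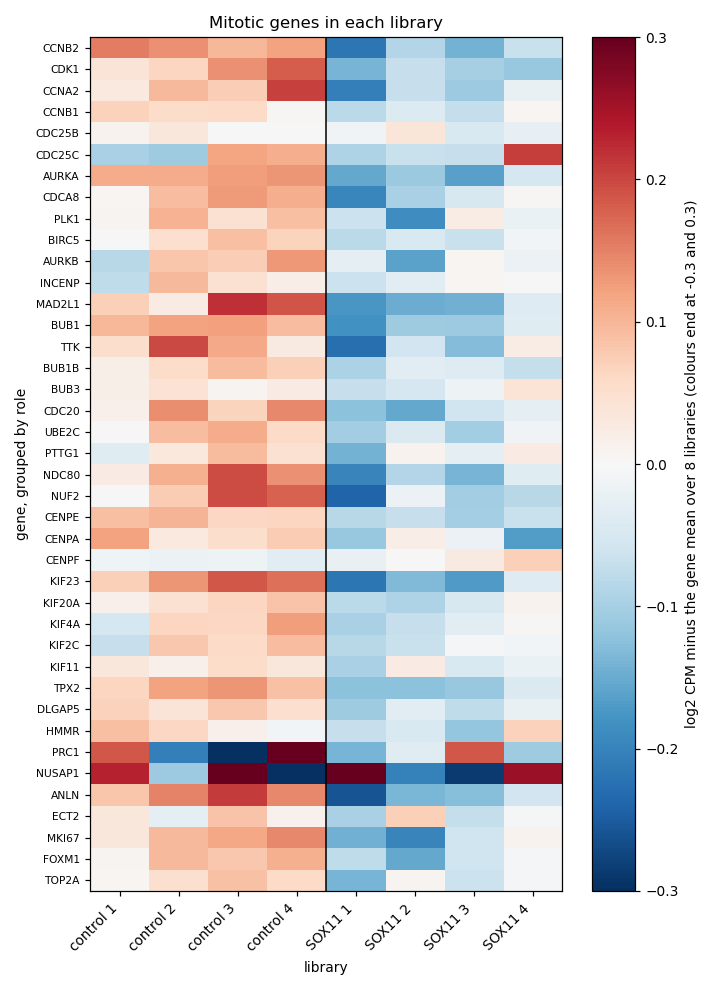
Level of each mitotic gene (rows, grouped by role) in each library (columns), as log2 CPM minus the mean of the gene over the 8 libraries, with colours ending at -0.3 and 0.3. Control columns are mostly red and SOX11 columns mostly blue, SOX11 replicate 1 is the deepest blue, and PRC1 and NUSAP1 scatter within both groups.

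The proliferation markers MKI67 and TOP2A and the transcription factor gene FOXM1 all fell. MKI67, which encodes the Ki-67 antigen of cycling cells, was at 1019, 1066, 1079 and 1100.4 CPM in control and at 901, 868, 955 and 1003 CPM in SOX11 libraries. The highest SOX11 library stayed below the lowest control library (log2 fold change -0.19 ± 0.0364, edgeR adjusted p = 0.000310). TOP2A, the DNA topoisomerase that untangles sister chromatids, was at 949, 975, 1004 and 983 CPM in control and at 858, 949.6, 903 and 940.1 CPM in SOX11 libraries. SOX11 replicate 2 just passed control replicate 1, so the groups touched (-0.10 ± 0.0317, adjusted p = 0.0244). The TOP2A call ended without control replicate 2, 3 or 4 or SOX11 replicate 1 or 3 (adjusted p = 0.0527 to 0.108) and with total-count scaling (0.0963). FOXM1, which drives transcription of G2 and M genes, was at 232, 247, 244 and 248 CPM in control and at 219, 208, 221 and 230.3 CPM in SOX11 libraries (-0.15 ± 0.0342, adjusted p = 0.00241). Control replicate 1 and SOX11 replicate 4 lay close together at the border between the groups. FOXM1 shares 781 exonic bases with ITFG2 on the opposite strand, and how the counting treated strand is not known here.

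The members tended to vary together between libraries, without a matching value for other genes. Summed over the 40 genes, the level was 8394, 8658, 8773 and 8727 CPM in control and 7541, 7790.4, 7827 and 8141 CPM in SOX11 libraries, a difference of -9.41% between the group means. All SOX11 libraries were below all control libraries in this sum. As a share of all counts, without TMM scaling, the difference was smaller, -7.64%. Within the SOX11 group, 35 of the 40 members were above their group mean in replicate 4 and 3 of the 40 in replicate 1. Replicate 1 was the lowest of the 8 libraries for 23 members, and control replicate 3 was the highest for 16. Over the 780 pairs of members, the median Pearson correlation of deviations from the group means was 0.45, with 611 above 0. These correlations share the same 8 libraries and their scaling, and are given as a description. They were not computed for all genes or for genes of similar level. Whether they are particular to mitotic genes was therefore not tested. In a bulk sample, fewer cells in G2 and mitosis and less of these transcripts per cell cannot be told apart.

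Genes outside the 40 that work in the same steps were read from 7 further lists of 121 genes, chosen with earlier results of these data known. Of the 121, all tested, 40 were called lower and 4 higher, against 9.67% and 10.3% of all genes tested, with a median log2 fold change of -0.08. Among all genes at 92.5 to 251 CPM, 20.0% were called lower and 11.7% higher. The further lists were not matched to genes of their own level. Of 26 other spindle, motor and cytokinesis genes, 16 fell, among them FAM83D (-0.29), the midbody gene CEP55 (-0.24) and the spindle pole gene ASPM (-0.21), and 1 rose. Of 29 other kinetochore and centromere genes, 11 fell and 0 rose. HJURP, the chaperone that deposits CENPA, fell by 0.23 on the log2 scale, ZWILCH by 0.24 and SKA2 by 0.22. ZWILCH overlaps RPL4 in 158 exonic bases.

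Of 17 condensin and cohesin genes, 5 fell (29.4%, against 9.67% of all genes tested and 20.0% at 92.5 to 251 CPM) and 0 rose. The fall was led by the condensin subunits SMC4 (-0.17), NCAPG (-0.18) and NCAPG2 (-0.13). The NCAPG2 call ended without control replicate 4 (adjusted p = 0.0565). SMC4 shares exonic bases with TRIM59 and IFT80, and NCAPG with LCORL. Separase (ESPL1, -0.19) and the checkpoint ATPase gene TRIP13 (-0.16) fell among 8 further genes of chromosome separation, and BOD1 (0.14) rose, a call that ended without control replicate 1, 2 or 4 or SOX11 replicate 3 or 4 (adjusted p = 0.0524 to 0.114). The BOD1 call also ended with the replicate block (adjusted p = 0.0511), with DESeq2 (0.0786) and without a filter (0.0760). Among 14 other genes of mitotic entry, 5 fell (35.7%, against the same 9.67% and 20.0%). Another 2 rose (14.3%, near the 10.3% of all genes tested). CDKN3, a phosphatase that acts on CDKs, was at 78.8, 79.8, 78.7 and 76.0 CPM in control and at 59.9, 67.0, 60.6 and 66.0 CPM in SOX11 libraries (log2 fold change -0.31 ± 0.0433, edgeR adjusted p = 3.94e-06). It fell more than any of the 40 members did. MELK (-0.15) and CCNF (-0.17) fell as well. The 2 that rose were WEE1 (0.17), the kinase that holds CDK1 inactive, and LMNB1 (0.13), which encodes the nuclear lamina protein lamin B1. Leaving out control replicate 2 (adjusted p = 0.0537) or 3 (0.0727) ended the call of WEE1. The microtubule-destabilising protein gene STMN1 rose from 254 ± 6.30 to 284 ± 10.4 CPM (SD, n = 4; 0.16 ± 0.0325, adjusted p = 0.000464), with all SOX11 libraries above all control libraries. WEE1, LMNB1 and STMN1 were chosen after their values were seen.

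The structural subunits of the APC/C and the centrosome genes were near the background. Of 17 APC/C subunits and regulators, 1 fell (5.88%, CDC27 at -0.10) and 0 rose, against 9.67% and 10.3% of all genes tested. The CDC27 call ended without control replicate 2, 3 or 4 or SOX11 replicate 1 or 3 (adjusted p = 0.0724 to 0.139), with upper quartile (0.0597) or total-count scaling (0.141) and with DESeq2 (0.0579). Of 10 centrosome genes, edgeR called 0, and TUBG1, which encodes gamma-tubulin, averaged 224 ± 9.72 CPM in control libraries and 212 ± 10.7 CPM with SOX11 (adjusted p = 0.143). It was the 1 centrosome gene with an unadjusted p below 0.05 (edgeR, 0.0432).

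**Figure D4:**
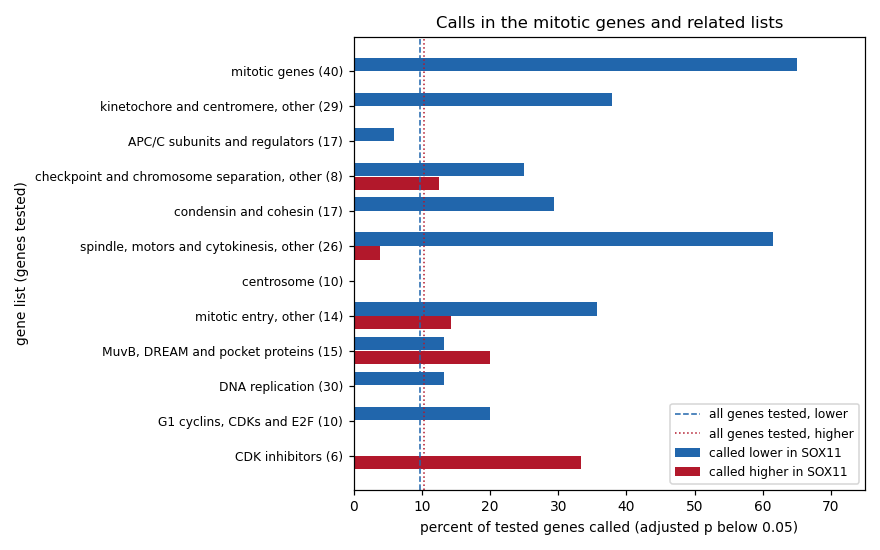
Percent of tested genes called lower (blue) and higher (red) in SOX11 libraries (x axis) for the mitotic genes and 11 related lists (y axis, number tested in brackets). Dashed and dotted lines mark the shares over all genes tested, 9.67% lower and 10.3% higher, and the mitotic genes reach 65.0% lower.

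Of 15 genes of the regulators that bind mitotic promoters (MuvB, DREAM and pocket proteins), 2 fell (13.3%, against 9.67% of all genes tested) and 3 rose (20.0%, against 10.3%). RBBP4, a histone-binding subunit of MuvB that also belongs to other chromatin complexes, was at 243, 235, 241 and 241 CPM in control and at 267, 291, 276 and 282 CPM in SOX11 libraries. All SOX11 libraries lay above all control libraries (log2 fold change 0.22 ± 0.0318, edgeR adjusted p = 6.61e-06). E2F5 (0.24) and TFDP2 (0.17) also rose, and the TFDP2 call ended without control replicate 1 or 2 or SOX11 replicate 4 (adjusted p = 0.0605 to 0.106) and with the GC and length offset (0.0506). E2F5 shares 969 exonic bases with RBIS on the opposite strand, a gene with 5290 counts over the 8 libraries. TFDP1, a partner of E2F factors, had a log2 fold change of -0.16, and E2F8, a repressor of the E2F family, had -0.25. MYBL2, the activating partner of MuvB, was at 244, 271, 261 and 289 CPM in control and at 234, 221, 257 and 258 CPM in SOX11 libraries. These ranges overlapped, and MYBL2 was not called (-0.13, adjusted p = 0.140). E2F5, TFDP2 and MYBL2 were named after their values were seen.

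Among CDK inhibitors, 2 of 6 tested rose and 0 fell, against 10.3% and 9.67% of all genes tested. CDKN1A, which encodes p21, was at 32.1, 33.8, 32.3 and 33.0 CPM in control and at 40.4, 35.2, 38.3 and 34.1 CPM in SOX11 libraries. The groups did not overlap, though the lowest SOX11 library was close to the highest control library (0.17 ± 0.0558, edgeR adjusted p = 0.0282). CDKN2B (p15) rose from 23.6 ± 3.59 to 28.9 ± 3.01 CPM with overlap between the groups (0.30 ± 0.0970, adjusted p = 0.0412). The CDKN1A call ended with DESeq2 and without control replicate 1, 3 or 4 or SOX11 replicate 1 or 3 (adjusted p = 0.0527 to 0.143). The CDKN2B call ended without control replicate 1, 2 or 4 or SOX11 replicate 1, 2 or 3 (0.0561 to 0.118). CDKN1B (0.0013), CDKN2A (-0.03), CDKN2C (-0.13) and CDKN2D (-0.24) were not called, and CDKN1C did not pass the filter. CDKN2A overlaps CDKN2B-AS1.

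DNA replication genes, which peak earlier in the cycle, were set beside the mitotic genes. Of 30 tested, 4 fell (13.3%, near the 9.67% of all genes tested) and 0 rose. Their median log2 fold change was -0.06, against -0.12 for the mitotic genes. Of the 30, 22 were below 0, against 38 of the 40 mitotic genes and 49.7% of all genes tested. The 4 called lower were the origin licensing factor gene CDC6 (-0.21), the nucleotide synthesis genes RRM2 (-0.18) and TYMS (-0.13), and GMNN (-0.15). GMNN encodes geminin and was named after its value was seen. The GMNN call ended without SOX11 replicate 1 (adjusted p = 0.0596), with total-count scaling (0.0555) and with the GC and length offset and replicate block (0.0505). TYMS overlaps ENOSF1 in 967 exonic bases. Of 10 tested G1 cyclin, CDK and E2F genes, CDK6 (-0.32) and CCNE2 (-0.17) fell and 0 rose, against 9.67% and 10.3% of all genes tested. CCNE2 shares 1629 exonic bases with INTS8, and its call ended without control replicate 1 or 4 or SOX11 replicate 1, 2 or 3 (adjusted p = 0.0672 to 0.141), with total-count scaling (0.0881) and with DESeq2 (0.0748).

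The mean level of each list was also read in each library, without a test. With each gene centred over the 8 libraries on the log2 scale, the mitotic genes stood at 0.04 to 0.09 in control and at -0.11 to -0.01 in SOX11 libraries. The replication genes stood at -0.05 to 0.08 in control and at -0.07 to 0.04 in SOX11 libraries, so their groups overlapped. The difference between both means within a library, which does not depend on the scaling between libraries, ranged from -0.0001 to 0.08 over the control libraries and from -0.07 to -0.0012 over the SOX11 libraries. Those ranges met without overlapping, and no test of this difference was made.

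**Figure D5:**
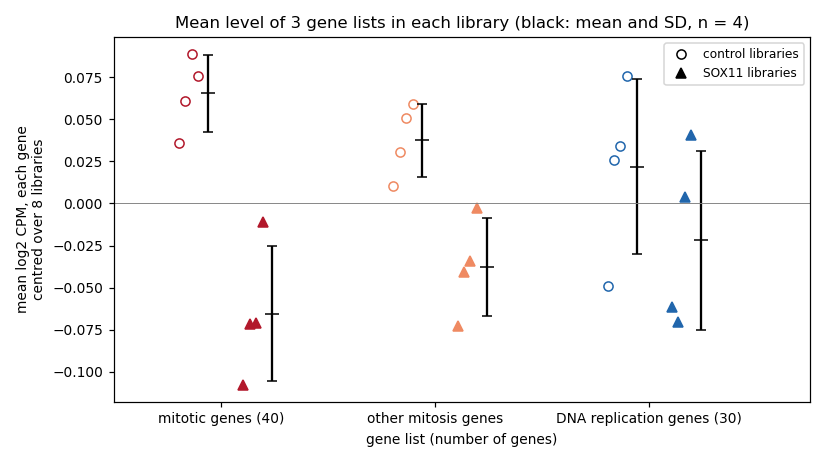
Mean log2 CPM of 3 gene lists in each library (y axis), each gene centred over the 8 libraries, with open circles for control and triangles for SOX11 libraries and black bars for mean and SD (n = 4). Circles and triangles do not overlap for the 40 mitotic genes (0.04 to 0.09 against -0.11 to -0.01) and do overlap for the 30 DNA replication genes.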

How the data were processed

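Gene read counts per library were deposited by the authors as raw whole numbers, 1 column per library. Per the labels' protocols, libraries were made with a stranded mRNA kit. Per the submitters' processing notes, cutadapt, FastQC and STAR 2.7.0e were used with GRCh38. Which program counted the reads, with which strand setting and gene annotation, is not given in the sources used here. Gene lengths and overlaps were taken from GENCODE 29.

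Genes were filtered with filterByExpr (minimum count 10) and tested with edgeR 4.0.16 in R 4.3.3 (TMM scaling, quasi-likelihood test, 4 against 4 libraries, Benjamini-Hochberg adjustment over all 15665 genes). Alternatives used limma 3.58.1 (voom), DESeq2 1.42.0, other scalings and filters, a replicate block, a GC and length offset, and removal of each library. The fits were also run on simulated data. How often they found changes as small as those of the members is not given here. Counting error limits the precision of low genes, and intervals are 95% intervals of the fit.

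The members and lists were chosen with earlier results of these data known. Values per library are given for CDK1, CCNB1, MKI67, TOP2A, FOXM1 and PLK1, for the member with the smallest p in each of 9 roles, and for the 3 lowest and 3 highest fold changes, and were added for PRC1 after its values were seen. From each further list up to 3 called genes with the smallest p are named, or the most abundant where none was called, and all CDK inhibitors. Some marker genes are not reported here. WEE1, LMNB1, STMN1, E2F5, TFDP2, GMNN and MYBL2 were named after their values were seen. Promoters were printed by smallest p among members with a CHR. The stretch of 170 bases, and the limit to members whose match lies wholly within it, were set after seeing where matches lay.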

Additional observations from a re-analysis of the deposited data

Results flagged for a closer look

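In 3 of 156 groups of 4 libraries, 1 library stood far from the other 3 (a gap above Dixon's 95% critical value, which chance gives in about 1 in 20 groups). All 3 were SOX11 replicate 4, the library with the highest levels of most mitotic genes in its group. TPX2 was at 368.1 CPM there and at 348.5 to 350.9 CPM in the other SOX11 libraries. CDC25C was at 22.27 CPM there and at 18.08 to 18.4 CPM in the others. NCAPG, a condensin subunit gene outside the 40, was at 180.4 CPM there and at 172.3 to 172.8 CPM in the others.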

How the results depend on the processing

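Over 18 alternatives, 20 to 27 of the 40 mitotic genes were called lower and 0 higher, with medians of -0.14 to -0.09. Of the 26 called, 19 kept the call in every alternative, and 7 (CENPA, CCNB1, KIF20A, TOP2A, BIRC5, PLK1, UBE2C) lost it in at least 1. Leaving out 1 library gave 20 to 27 members called lower, medians of -0.1379 to -0.1153 and 2466 to 3057 genes called in all. Total-count scaling gave 20 members and moved the split of all calls from 1615 higher and 1515 lower to 2044 and 1062. With the replicate number as a block, 24 members and 2899 genes were called, and CENPA and CCNB1 lost the call. Same-numbered libraries did not deviate together (correlations -0.0683 to 0.1089). Without PRC1 and NUSAP1, chosen after seeing the data, 26 of 38 were lower. DESeq2 gave no adjusted p for NUSAP1. Only uncalled genes changed sign. CDC25C turned to 0.0002 with upper quartile scaling, CDC25B to 0.0057, CDC25C to 0.0214 and CDKN2A to 0.0004 with total counts. The GC and length offset, without and with the replicate block, gave CDC25C 0.0155 and 0.0118, CENPF -0.0016 and -0.0022 and CDKN2A 0.0057 and 0.0059. CDKN1B turned to -0.0007 with DESeq2's size factors, -0.007 without a filter and -0.0015 with DESeq2. Without 1 library, PRC1 ranged from -0.1617 to 0.0813, CDC25C from -0.0837 to 0.0304, NUSAP1 from -0.0505 to 0.244 and CDKN1B from -0.035 to 0.0255. The cause was not tested.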
